A study of Drosophila melanogaster with 16 samples.

Results

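Transcripts of 10 genes of glycolysis and lactate formation were followed in ganglion mother cells (GMCs) and neuroblasts (NBs) of the Drosophila melanogaster larval brain. The genes were Hex-A, Pgi, Pfk, Ald, Gapdh1, Gapdh2, Pgk, Eno, PyK and ImpL3, found by their current symbol in the authors' deposited comparison tables and joined by gene identifier to the count tables, 10 of 16364 genes in all. All 10 passed the filter on low counts, with at least 82 counts of each gene in every library. They were chosen by pathway and not by a threshold on a measured value, though with earlier results of these data known.

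Type I NBs are the stem cells of the larval brain. Each divides asymmetrically into a new NB and a smaller GMC, and the GMC divides once more into a pair of neurons or glia. Every group came from flies that carried UAS-dcr2, ase-GAL4 and UAS-stinger::GFP, which the labels call wild type. The flies were reared at 25 °C and dissected as wandering larvae. GMCs and NBs alike therefore carry the driver, the nuclear GFP and the extra Dicer-2. The ase driver marks cells of the type I lineage, and the cells had left the brain: sorted NBs spent 1.5, 3 or 5 h in culture before they were sorted again to part the GMCs born there from the NBs. The groups were GMCs at 1.5 h (3 libraries), 3 h (2 libraries) and 5 h (2 libraries), each set against NBs cultured for the same time (3 libraries at each age). The design asks how the transcriptomes of the daughter cells differ and how that difference changes as the GMCs age.

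Glycolysis splits glucose into pyruvate. Its first steps (hexokinase, phosphoglucose isomerase, phosphofructokinase and aldolase) spend ATP to cut the sugar, and its later steps (glyceraldehyde-3-phosphate dehydrogenase, phosphoglycerate kinase, enolase and pyruvate kinase) regain ATP and form NADH and pyruvate. Lactate dehydrogenase turns pyruvate into lactate and restores NAD+. Growing fly larvae are known for high glycolytic and lactate dehydrogenase expression, and proliferating larval NBs are known to draw on both glycolysis and respiration.

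Library depth ran from 6899670 to 21207182 counts assigned to genes. The labels were set against markers: of 9 GMC and new neuron markers, 9, 8 and 5 were higher in GMCs at 1.5, 3 and 5 h and none was lower, and of 11 neuroblast markers, 8, 7 and 5 were lower. Of all tested genes, 8.58%, 10.1% and 14.7% were called higher at these ages and 8.98%, 10.5% and 14% lower. The neuroblast markers wor and ase were higher in GMCs at 3 and 5 h, and the neuron markers brp and nSyb were higher in GMCs at 1.5 and 3 h but not called at 5 h. The labels do not say whether libraries of a group came from separate dissections, so the p-values reflect only how these libraries varied, and that variation may be technical. Each age has a sequencing run of its own, by the run names on the deposited files, so age and run cannot be told apart within 1 cell type. NB replicate 1 at 5 h stood apart: on the first principal component over all tested genes (32.3% of the variance) it lay at -38.7, while the other 5 h libraries lay between 65.1 and 79.0 and the 3 h libraries between -69.6 and -22.2. The count of the 10 genes called at 5 h and some single values are therefore also given without it. The noncoding RNA CR43283 took 18.7% ± 2.75, 24.6% ± 4.02 and 9.005% ± 2.91 of gene counts in GMCs at 1.5, 3 and 5 h, against 4.58% ± 0.511, 5.30% ± 1.36 and 0.814% ± 0.304 in NBs (SD).

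Of the 10 genes, 5 were lower in GMCs than in NBs at 1.5 h, 6 at 3 h and 9 at 5 h, and none was called higher. The most negative fold changes at each age were those of Ald (aldolase), which in GMCs was 3.24-fold lower at 1.5 h, 5.84-fold lower at 3 h and 17-fold lower at 5 h, and Hex-A (hexokinase), which was 2.77-, 4.04- and 6.97-fold lower. Pgk (phosphoglycerate kinase) was not called at any age. By edgeR's quasi-likelihood test with Benjamini-Hochberg adjustment over 10913 genes, called at an adjusted p under 0.05, 5 of the 10 genes were lower and 0 higher at 1.5 h, where 8.98% of all tested genes were called lower and 8.58% higher. At 3 h 6 were lower and 0 higher, where 10.5% of all genes were lower and 10.1% higher. At 5 h 9 were lower and 0 higher, where 14% of all genes were lower and 14.7% higher.

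The median log2 fold change of GMCs over NBs across the 10 genes was -0.62 at 1.5 h, -1.07 at 3 h and -1.75 at 5 h, beside 0.04, 0.07 and -0.12 over all tested genes. All 10 fold changes had a negative sign at each age, called or not. Every GMC library lay below every NB library for 8 of the 10 genes at 1.5 h, 7 at 3 h and 10 at 5 h, beside 22.4%, 23% and 23.1% of all tested genes. Without NB replicate 1 at 5 h, 9 of the 10 were still called at that age. In the authors' deposited table of DESeq2 tests, 5, 8 and 9 of the 10 genes were lower in GMCs at an adjusted p under 0.05 at 1.5, 3 and 5 h, where 1261 of 11670, 1626 of 10163 and 1740 of 10465 genes with an adjusted p in that table were lower. The counts come from bulk RNA of sorted cells, in which fewer cells that hold a transcript and less of it per cell cannot be told apart.

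**Figure D1:**
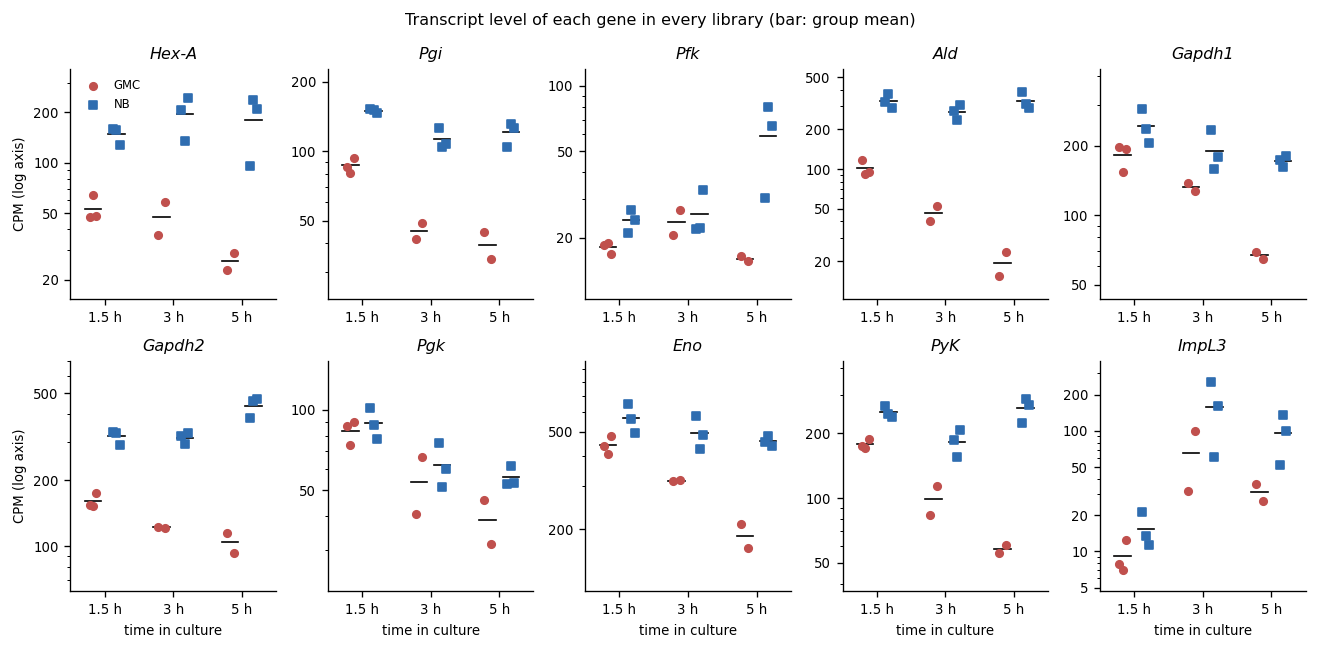
Transcript level of each of the 10 genes in every library, in CPM on a log axis, against hours in culture; circles are GMC libraries, squares NB libraries and bars group means. GMC points lie below all NB points of the same age except for Pgk and ImpL3 at 1.5 h and Pfk, Pgk and ImpL3 at 3 h.

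Levels below are CPM, read counts divided by the TMM-scaled library size and set to a common size. Fold changes are log2 of GMCs over NBs with their standard errors, from the same edgeR fit, and adjusted p-values are over all genes tested.

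Hex-A, a hexokinase, phosphorylates glucose as it enters the pathway. At 1.5 h Hex-A had 47.2, 64.7 and 48.0 CPM in the GMC libraries, against 160.0, 156.005 and 127 CPM in the NB libraries. The 3 h GMC libraries held Hex-A at 37.1 and 58.5 CPM, against 206, 135 and 243 CPM in the 3 h NB libraries. Hex-A counts came to 23.0 and 29.1 CPM in GMCs at 5 h, against 95.6, 238 and 209.6 CPM in NBs of that age. The groups did not overlap at any age, and NB replicate 1 at 5 h was far below the other 5 h NB libraries while still above both GMC libraries. On the log2 scale the fold change was -1.47 ± 0.30 at 1.5 h (adjusted p = 0.0028), -2.01 ± 0.35 at 3 h (adjusted p = 7.75e-04) and -2.80 ± 0.37 at 5 h (adjusted p = 3.83e-05). Without that NB library it was -3.11 at 5 h.

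Pgi, the isomerase that turns glucose-6-phosphate into fructose-6-phosphate, had one of the narrower spreads within groups. The 1.5 h GMC libraries held Pgi at 85.8, 80.7 and 93.8 CPM, against 152, 151 and 146 CPM in the 1.5 h NB libraries. At 3 h Pgi had 41.6 and 48.7 CPM in the GMC libraries, against 126, 104 and 108 CPM in the NB libraries. Pgi counts came to 44.5 and 34.1 CPM in GMCs at 5 h, against 104, 132 and 127 CPM in NBs of that age. All GMC libraries lay below all NB libraries at each age. Its log2 fold change was -0.79 ± 0.15 at 1.5 h (adjusted p = 0.00195), -1.31 ± 0.18 at 3 h (adjusted p = 9.84e-05) and -1.62 ± 0.18 at 5 h (adjusted p = 7.59e-06).

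Pfk, phosphofructokinase, catalyses the committed step of glycolysis. Pfk counts came to 18.6, 18.8 and 16.7 CPM in GMCs at 1.5 h, against 21.0, 26.9 and 24.2 CPM in NBs of that age. The 3 h GMC libraries held Pfk at 20.5 and 26.7 CPM, against 21.9, 22.1 and 33.1 CPM in the 3 h NB libraries. At 5 h Pfk had 16.4 and 15.6 CPM in the GMC libraries, against 30.5, 79.9 and 65.3 CPM in the NB libraries. At 1.5 h the GMC libraries lay just below the NB libraries, at 3 h the groups overlapped, and at 5 h both GMC libraries lay well below NB replicates 2 and 3 and less far below NB replicate 1. The log2 fold change was -0.41 ± 0.28 at 1.5 h (adjusted p = 0.35), -0.12 ± 0.31 at 3 h (adjusted p = 0.842) and -1.87 ± 0.33 at 5 h (adjusted p = 4.82e-04). The call at 5 h held without NB replicate 1, at -2.19 (edgeR adjusted p = 9.96e-06).

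Ald, aldolase, splits fructose-1,6-bisphosphate into triose phosphates. At 1.5 h Ald had 117, 92.4 and 95.4 CPM in the GMC libraries, against 325, 369.9 and 292 CPM in the NB libraries. The 3 h GMC libraries held Ald at 40.5 and 52.4 CPM, against 275, 235 and 308 CPM in the 3 h NB libraries. Ald counts came to 15.4 and 23.5 CPM in GMCs at 5 h, against 385, 313 and 292 CPM in NBs of that age. The GMC libraries were lowest at 5 h and highest at 1.5 h, whereas NB libraries of the 3 ages covered a single range, and no GMC library reached it. The log2 fold change was -1.70 ± 0.19 at 1.5 h (adjusted p = 4.46e-05), -2.55 ± 0.23 at 3 h (adjusted p = 3.45e-06) and -4.09 ± 0.25 at 5 h (adjusted p = 3.81e-08). Under the alternative settings and with each library left out the 5 h value stayed between -4.42 and -3.81. The gene, named Ald1 in the reference annotation, lies on chromosome 3R:26254069-26261591, minus strand (genome release 6), and 8.87% of its exon bases overlap asRNA:CR44321 on the opposite strand. Whether the counting used strand is not stated, so reads of the pair within that overlap cannot be told apart.

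**Figure D2:**
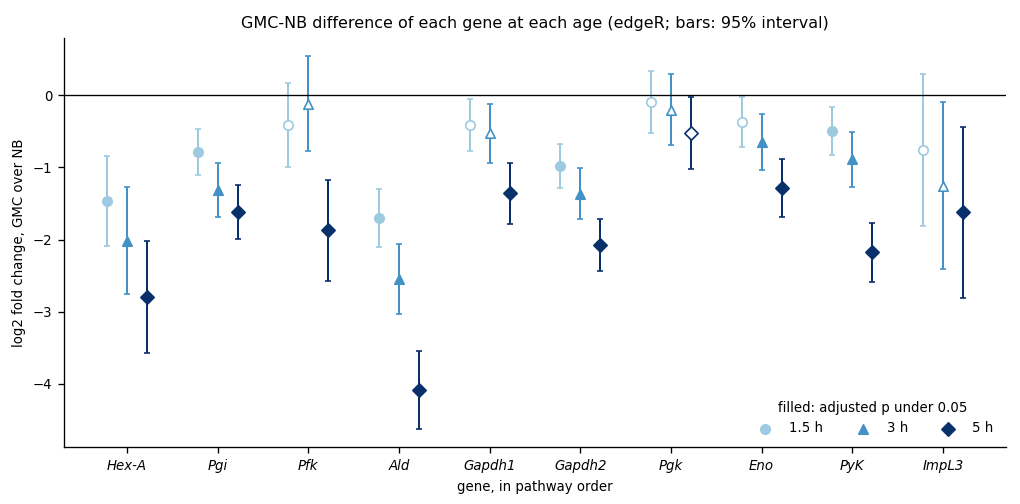
The log2 fold change of GMCs over NBs for each gene at 1.5, 3 and 5 h, in pathway order, with 95% confidence intervals from edgeR; filled symbols have an adjusted p under 0.05. The 5 h estimate is the lowest of the 3 for each gene, and Ald reaches -4.09.

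Gapdh1 and Gapdh2 encode glyceraldehyde-3-phosphate dehydrogenase, the step that makes NADH. The 1.5 h GMC libraries held Gapdh1 at 198, 154 and 193 CPM, against 287, 235 and 205 CPM in the 1.5 h NB libraries. Gapdh1 counts came to 137 and 127 CPM in GMCs at 3 h, against 233, 159 and 178 CPM in NBs of that age. At 5 h Gapdh1 had 69.2 and 64.6 CPM in the GMC libraries, against 173, 162 and 180.4 CPM in the NB libraries. The GMC libraries lay below the NB libraries at each age, closely at 1.5 and 3 h and by more than the spread of either group at 5 h. Its log2 fold change was -0.42 ± 0.17 at 1.5 h (adjusted p = 0.108), -0.53 ± 0.19 at 3 h (adjusted p = 0.0645) and -1.36 ± 0.20 at 5 h (adjusted p = 9.84e-05).

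Gapdh2 had the more negative fold changes of the pair at each age. At 1.5 h Gapdh2 had 154, 153 and 175 CPM in the GMC libraries, against 331, 329.6 and 289.8 CPM in the NB libraries. The 3 h GMC libraries held Gapdh2 at 122 and 121 CPM, against 317, 293 and 328 CPM in the 3 h NB libraries. Gapdh2 counts came to 115 and 93.2 CPM in GMCs at 5 h, against 383, 459.5 and 469 CPM in NBs of that age. GMC libraries were low and NB libraries high at all 3 ages with no overlap. Its log2 fold change was -0.98 ± 0.14 at 1.5 h (adjusted p = 2.84e-04), -1.36 ± 0.17 at 3 h (adjusted p = 4.66e-05) and -2.07 ± 0.17 at 5 h (adjusted p = 7.26e-07).

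The ratio of Gapdh2 to Gapdh1 counts was taken in each library. It was 0.780, 0.994 and 0.906 in GMC libraries at 1.5 h, against 1.15, 1.40 and 1.42 in NB libraries. At 3 h it was 0.893 and 0.952 in GMCs, against 1.36, 1.85 and 1.84 in NBs. At 5 h it was 1.66 and 1.44 in GMCs, against 2.21, 2.84 and 2.60 in NBs. GMC ratios lay below all NB ratios of the same age, and both cell types had their highest ratios at 5 h, which was also a run of its own. No test was made of the ratio. The isozymes are close in coding sequence, and reads that could not be placed uniquely were set aside in the count tables, so the split between them is uncertain. Gapdh1 lies on chromosome arm 2R and Gapdh2 on chromosome X:15868145-15869661, plus strand.

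Pgk, phosphoglycerate kinase, makes the first ATP of the later steps. Pgk counts came to 86.6, 73.7 and 89.7 CPM in GMCs at 1.5 h, against 102, 87.4 and 77.8 CPM in NBs of that age. At 3 h Pgk had 40.7 and 66.8 CPM in the GMC libraries, against 74.8, 51.4 and 60.0 CPM in the NB libraries. The 5 h GMC libraries held Pgk at 46.1 and 31.5 CPM, against 53.0, 61.5 and 53.2 CPM in the 5 h NB libraries. The groups overlapped at 1.5 and 3 h and lay close together without overlap at 5 h. The log2 fold change was -0.09 ± 0.20 at 1.5 h (adjusted p = 0.81), -0.20 ± 0.23 at 3 h (adjusted p = 0.615) and -0.53 ± 0.24 at 5 h (adjusted p = 0.109). The 95% interval at 5 h ran from -1.03 to -0.02, and that at 1.5 h from -0.53 to 0.34.

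Eno, enolase, forms phosphoenolpyruvate. At 1.5 h Eno had 436, 405 and 480.4 CPM in the GMC libraries, against 651, 562 and 495 CPM in the NB libraries. Eno counts came to 315 and 317 CPM in GMCs at 3 h, against 579, 425 and 483 CPM in NBs of that age. The 5 h GMC libraries held Eno at 209 and 167 CPM, against 456, 482 and 439 CPM in the 5 h NB libraries. GMC libraries lay below NB libraries at each age, nearest at 1.5 h, where the highest GMC library almost reached the lowest NB library. Its log2 fold change was -0.37 ± 0.16 at 1.5 h (adjusted p = 0.132), -0.65 ± 0.18 at 3 h (adjusted p = 0.0187) and -1.29 ± 0.19 at 5 h (adjusted p = 9.24e-05). The 3 h call was lost when only the 3 h libraries were fitted (adjusted p = 0.0623), without GMC replicate 1 (0.142) and without GMC replicate 2 (0.113). Of its exon bases, 9.74% overlap Rrp40 on the opposite strand, and 3.08% of those of Pgk overlap Cwc25.

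PyK, pyruvate kinase, yields pyruvate and the last ATP of the pathway. The 1.5 h GMC libraries held PyK at 175, 171 and 188 CPM, against 267, 245 and 238 CPM in the 1.5 h NB libraries. At 3 h PyK had 83.8 and 114 CPM in the GMC libraries, against 187, 155 and 207 CPM in the NB libraries. PyK counts came to 55.3 and 60.2 CPM in GMCs at 5 h, against 224, 289.7 and 269 CPM in NBs of that age. No GMC library reached an NB library of its age, and the gap was widest at 5 h. On the log2 scale GMCs over NBs had -0.49 ± 0.16 at 1.5 h (adjusted p = 0.0403), -0.89 ± 0.18 at 3 h (adjusted p = 0.00242) and -2.18 ± 0.19 at 5 h (adjusted p = 1.01e-06). The call at 1.5 h was lost without any of the 3 NB libraries or GMC replicates 1 or 2 (edgeR adjusted p between 0.0741 and 0.131), with scaling that leaves out CR43283 (0.0688) and with a gene-length trend removed (0.0569). At 3 h it was lost without GMC replicate 1 (0.0812).

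ImpL3, lactate dehydrogenase (Ldh in the reference annotation, chromosome 3L:6259105-6262694, minus strand), had the widest intervals of the genes. At 1.5 h ImpL3 had 7.85, 7.01 and 12.5 CPM in the GMC libraries, against 21.2, 13.5 and 11.4 CPM in the NB libraries. The 3 h GMC libraries held ImpL3 at 31.6 and 101 CPM, against 255.3, 61.0 and 162 CPM in the 3 h NB libraries. ImpL3 counts came to 36.5 and 26.0 CPM in GMCs at 5 h, against 52.3, 137 and 100.3 CPM in NBs of that age. The groups overlapped at 1.5 and 3 h and did not at 5 h, and at 3 h the libraries of each group were far apart. The log2 fold change was -0.76 ± 0.50 at 1.5 h (adjusted p = 0.343), -1.25 ± 0.55 at 3 h (adjusted p = 0.12) and -1.62 ± 0.56 at 5 h (adjusted p = 0.0393). The 5 h call was lost without each of NB replicates 2 and 3 and GMC replicates 1 and 2 (adjusted p between 0.0624 and 0.235) and under 4 other settings (0.0550 to 0.100), among them no filter on low counts and scaling without CR43283.

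The change of the GMC-NB difference with age was then tested within the same fit, so that each difference lay within 1 sequencing run. The comparisons of different ages with 1.5 h share the 1.5 h libraries. Between 1.5 and 3 h 0 of the 10 genes were called, as were 0 of all tested genes; 6.19% of genes and 2 of the 10 (Pgi and Ald) had an unadjusted p under 0.05, and DESeq2 called 32 genes and 0 of the 10. Between 1.5 and 5 h the difference grew more negative for 7 of the 10 genes, where 6.54% of all genes were called lower and 6.52% higher. They were Ald (-2.39 ± 0.29), PyK (-1.69 ± 0.24), Pfk (-1.46 ± 0.42), Gapdh2 (-1.09 ± 0.22), Gapdh1 (-0.94 ± 0.26), Eno (-0.92 ± 0.24) and Pgi (-0.83 ± 0.23), as changes of the log2 fold change with SE. Hex-A had -1.33 ± 0.45, which was not called (edgeR adjusted p = 0.0587) and was called without NB replicate 1 at 5 h (-1.64, adjusted p = 0.00500), with DESeq2 (0.0271), in a fit of only the groups compared (0.0430) and with the gene-length trend removed (0.0390). Pgk had -0.43 (95% interval -1.09 to 0.23) and ImpL3 -0.87 (-2.42 to 0.69), neither called. Between 3 and 5 h Pfk (-1.76 ± 0.44), Ald (-1.54 ± 0.30) and PyK (-1.29 ± 0.25) were called, where 2.36% of all genes were called lower and 1.69% higher.

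For Ald, Gapdh2 and PyK the call between 1.5 and 5 h held under each alternative run, with the largest edgeR or DESeq2 adjusted p at 0.00283, 0.0391 and 0.00710. The other 4 calls were lost when single libraries were left out, though their estimates stayed negative throughout. They ran from -1.78 to -1.17 for Pfk and from -1.03 to -0.64 for Pgi. For Gapdh1 they ran from -1.08 to -0.81 and for Eno from -1.08 to -0.75. That of Pfk was lost without each library of the 4 groups compared except NB replicate 1 at 5 h (adjusted p between 0.0503 and 0.122). Those of Pgi, Gapdh1 and Eno were lost without NB replicates 2 or 3 or GMC replicate 3 at 1.5 h (0.0516 to 0.0689) and without GMC replicate 2 at 5 h (0.175 for Pgi, 0.114 for Gapdh1 and 0.134 for Eno). Gapdh1 was also lost without GMC replicate 1 at 1.5 h (0.0586) or 5 h (0.0783), and Pgi without NB replicate 3 at 5 h (0.0529) or with no filter on low counts (0.0676). Of the calls between 3 and 5 h, those of Ald and PyK were lost without GMC replicate 2 at 3 h (0.0713 and 0.0782) or GMC replicate 1 at 5 h (0.106 and 0.101), and all 3 in a fit of only these groups (0.0751 to 0.151). That of Pfk was also lost without each of the 10 libraries of these groups except NB replicates 1 and 3 at 3 h and NB replicate 1 at 5 h (0.0516 to 0.154).

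The 5 h libraries were also set against the 1.5 h libraries of the same cell type. Each age had its own sequencing run, so age and run cannot be told apart in these comparisons. In GMCs 8 of the 10 genes were lower at 5 h than at 1.5 h and ImpL3 was higher, where 13.2% of all genes were called lower and 17% higher. In NBs Pgk was lower and ImpL3, Pfk and Gapdh2 were higher, where 3.99% of all genes were lower and 7.19% higher. Without NB replicate 1 at 5 h the genes called in NBs numbered 2276 (855 of them lower), against 1220 (435 lower) with it, and Pgk was no longer called. The median log2 change of the 10 genes was -1.12 in GMCs and 0.03 in NBs, beside -0.13 and 0.06 over all tested genes.

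Ald at 5 h over 1.5 h had a log2 change of -2.39 ± 0.23 in GMCs (adjusted p = 3.80e-06) and 0.00 ± 0.18 in NBs. For PyK the changes were -1.62 ± 0.19 in GMCs (adjusted p = 1.54e-05) and 0.06 ± 0.16 in NBs. Aldolase and pyruvate kinase transcripts were lower in the 5 h than in the 1.5 h GMC libraries, while the NB estimates were near 0. Pfk had the other pattern, with -0.18 ± 0.32 in GMCs and 1.29 ± 0.28 in NBs (adjusted p = 0.00801). Gapdh2 was called in both cell types and in opposite directions, at -0.63 ± 0.16 in GMCs (adjusted p = 0.00808) and 0.46 ± 0.14 in NBs (adjusted p = 0.0443). Pgk was lower at 5 h in both, at -1.10 ± 0.24 in GMCs (adjusted p = 0.00271) and -0.67 ± 0.21 in NBs (adjusted p = 0.0462). Gapdh1, Eno, Pgi and Hex-A had -1.44, -1.23, -1.14 and -1.04 in GMCs, all called. In NBs they had -0.50, -0.31, -0.31 and 0.29, none called. Gapdh1 in NBs was called lower with DESeq2 (adjusted p = 0.0308) and with a replicate block (edgeR adjusted p = 0.0309).

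ImpL3 was the only one of the 10 called higher at the later ages in both cell types. Age and sequencing run cannot be told apart in this rise. At 3 h over 1.5 h its log2 change was 2.88 ± 0.55 in GMCs, 7.36-fold higher (adjusted p = 0.0137), and 3.38 ± 0.51 in NBs, 10.4-fold higher (adjusted p = 0.0322). At 5 h over 1.5 h it was 1.79 ± 0.55 in GMCs (adjusted p = 0.0217) and 2.65 ± 0.50 in NBs (adjusted p = 0.00353). All GMC and NB libraries at 3 and 5 h lay above all libraries of their cell type at 1.5 h. It was the only one of the 10 called in NBs at 3 h, where 0.0733% of all genes were called higher and 0.0367% lower. In GMCs at 3 h Ald (-1.12 ± 0.22), Pgi (-0.94 ± 0.17) and PyK (-0.85 ± 0.18) were called lower beside it, where 1.62% of all genes were lower and 1.28% higher.

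**Figure D3:**
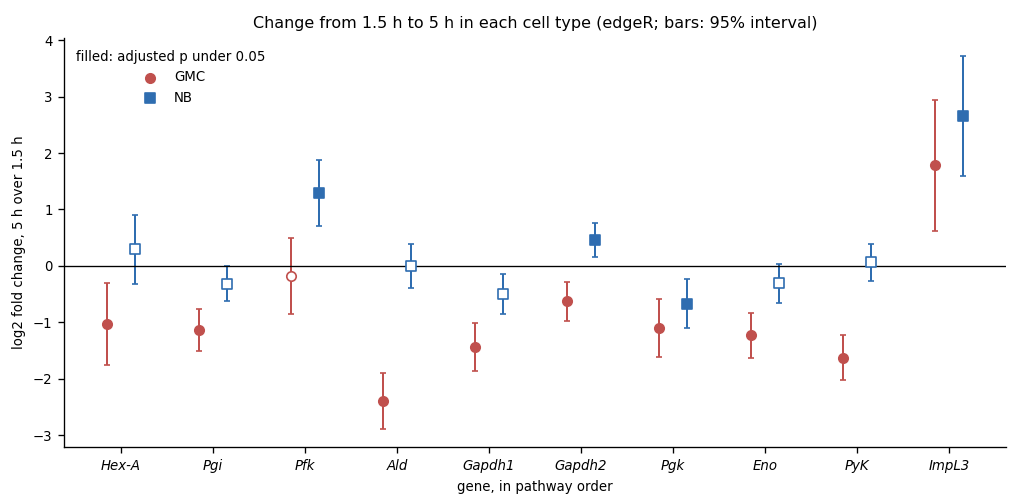
The log2 change at 5 h over 1.5 h for each gene in GMCs (circles) and NBs (squares), with 95% confidence intervals from edgeR; filled symbols have an adjusted p under 0.05. All GMC estimates except that of ImpL3 lie below 0. NB estimates lie on both sides of 0, with ImpL3, Pfk and Gapdh2 called above it and Pgk called below it.

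Several of these calls were lost when single libraries were left out. With each library of the groups compared left out in turn and under the other settings, the 5 h calls of Ald, PyK, Gapdh1, Eno and Pgi in GMCs and of ImpL3 and Pfk in NBs held. In GMCs at 5 h Hex-A was lost without GMC replicate 2 at 1.5 h (adjusted p = 0.0960) or either 5 h library (0.197 and 0.0958). Without GMC replicate 2 at 5 h Gapdh2 (0.132), Pgk (0.0713) and ImpL3 (0.0549) were lost, and ImpL3 also without GMC replicate 1 at 5 h (0.137) or replicates 1 or 2 at 1.5 h (0.0685 and 0.0723). In NBs at 5 h Pgk was lost without each of the 6 libraries (0.0589 to 0.184), and Gapdh2 without each of them except replicate 1 at 5 h (0.0987 to 0.158). ImpL3 in NBs at 3 h was lost without each of the 6 libraries except replicate 2 at 3 h (0.0593 to 0.287). The 4 calls in GMCs at 3 h were lost without GMC replicate 1 and without GMC replicate 2 of that age (0.0540 to 0.364). They were also lost without GMC libraries at 1.5 h: Pgi without replicate 3 (0.0639), Ald without replicate 1 (0.0543), ImpL3 without replicates 1 or 2 (0.0584 and 0.0657) and PyK without each of the 3 (0.0584 to 0.0937). With no filter on low counts ImpL3 was lost in NBs at 3 h (0.0778) and in GMCs at 5 h (0.0677) and Gapdh2 in NBs at 5 h (0.151). Gapdh2 in NBs at 5 h was also lost when only those groups were fitted (0.0706) and with scaling without CR43283 (0.0567). In GMCs at 5 h it was lost with the gene-length trend removed (0.0928). In GMCs at 3 h lower calls were gained for Gapdh2 with DESeq2 (0.0453) and for Pgk when only those groups were fitted (0.0406).

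Together the 10 genes made up 0.122% ± 0.0173 of gene counts in GMCs at 1.5 h, against 0.232% ± 0.0159 in NBs. At 3 h the share was 0.0775% ± 0.0149 in GMCs, against 0.235% ± 0.0301 in NBs. At 5 h it was 0.0472% ± 0.0118 in GMCs, against 0.244% ± 0.0103 in NBs (SD between libraries). The GMC shares did not overlap between ages and were lower at each later age, whereas the NB shares of the 3 ages overlapped. With CR43283 left out of the total, the shares were 0.150% ± 0.0162, 0.102% ± 0.0143 and 0.0517% ± 0.0113 in GMCs, against 0.243% ± 0.0178, 0.248% ± 0.0321 and 0.246% ± 0.00974 in NBs.

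**Figure D4:**
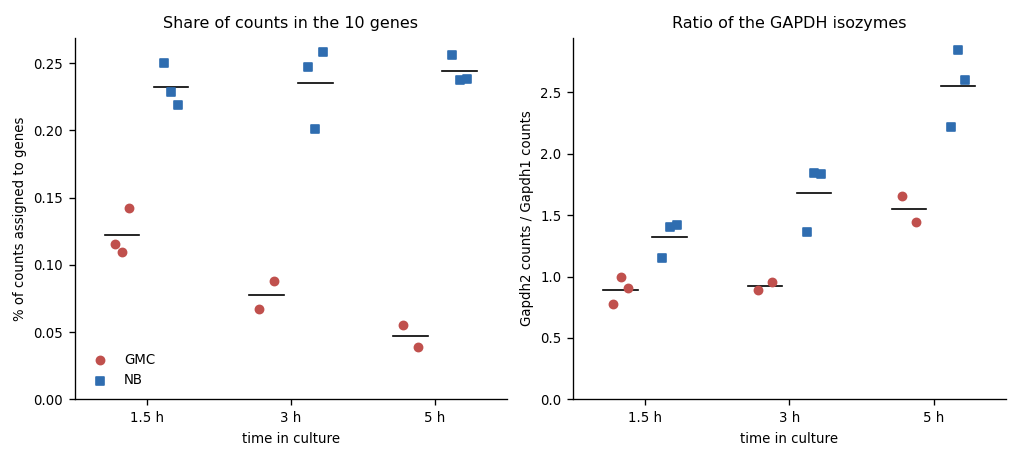
Left, the summed share of the 10 genes in the gene counts of each library, in percent; right, the ratio of Gapdh2 to Gapdh1 counts; both against hours in culture, with GMC libraries as circles, NB libraries as squares and bars at group means. GMC shares lie between 0.0388% and 0.142% and NB shares between 0.201% and 0.258%, and GMC ratios lie below NB ratios at each age.

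Levels were compared between genes as CPM per kilobase of exon, with the union of a gene's exons as its length, and again with its longest transcript. By the union, Gapdh2 had the highest mean level in GMCs at 5 h (72.0 ± 10.5) and in NBs at 1.5, 3 and 5 h (219.6 ± 16.3, 217 ± 12.1 and 303 ± 32.5; SD), and its libraries did not overlap with those of the gene ranked next. By the longest transcript it kept the highest mean in those 4 groups, but its libraries overlapped with those of Eno, ranked next, in all of them except NBs at 5 h (72.0 ± 10.5 for Gapdh2 and 70.7 ± 11.2 for Eno in GMCs at 5 h). In GMCs at 1.5 and 3 h Gapdh1 ranked first by the union (123 ± 16.3 and 89.2 ± 4.96 CPM per kilobase), and Eno by the longest transcript (165 ± 14.2 and 119 ± 0.585). By the union at 1.5 h the libraries of Gapdh1 overlapped with those of Eno (118 ± 10.2), and Eno's with those of Gapdh2 (111 ± 8.38). PyK had rank 4 in GMCs at all 3 ages by both lengths, and by the union it stood at 79.4 ± 4.16, 44.0 ± 9.36 and 25.8 ± 1.53. By the union Ald had ranks 7, 8 and 9 in GMCs at 1.5, 3 and 5 h (26.6 ± 3.47, 12.2 ± 2.21 and 5.10 ± 1.51), against ranks 5, 6 and 5 in NBs (86.4 ± 10.3, 71.6 ± 9.51 and 86.6 ± 12.8). By the longest transcript the ranks of Ald were 6, 8 and 8 in GMCs, against 4, 4 and 3 in NBs. ImpL3 stood at 4.69 ± 1.51, 34.1 ± 25.1 and 16.1 ± 3.81 in GMCs, against 7.90 ± 2.67, 82.1 ± 50.02 and 49.7 ± 21.8 in NBs. Pfk ranked last in all 6 groups by the union, and by the longest transcript in all except GMCs at 1.5 h, where ImpL3 did. Its level by the union ran from 3.65 ± 0.134 in GMCs at 5 h to 13.4 ± 5.80 in NBs at 5 h. At 1.5 h in both cell types its libraries overlapped with those of ImpL3.

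Across the 16 libraries the genes did not all move together. As a description over libraries that share runs and depth, Pearson's r of each gene's log2 CPM with the mean of the other 9 was highest for Ald (0.95), PyK (0.94) and Pgi (0.93), and lowest for Pfk (0.56), Pgk (0.52) and ImpL3 (0.19). The closest pair was Gapdh1 and Eno (r = 0.98), and the most opposed was Pgk and ImpL3 (-0.31).

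In the lists of related genes that follow, values without a unit are log2 fold changes of GMCs over NBs. Among the other enzymes of glycolysis, 0 of 10 tested genes were called at 1.5 h, 2 were lower and 1 higher at 3 h, and 3 were lower at 5 h, beside the shares of all tested genes called lower (8.98%, 10.5% and 14%) and higher (8.58%, 10.1% and 14.7%) at the 3 ages. Their median log2 fold changes were -0.07, -0.55 and -0.58. Tpi, triosephosphate isomerase, averaged 15.4 ± 0.744 CPM in GMC libraries and 49.4 ± 4.08 CPM in NB libraries at 5 h, with -1.68 on the log2 scale (edgeR adjusted p = 7.10e-05), and -1.003 at 3 h. Pglym78, phosphoglycerate mutase, averaged 10.9 ± 2.93 CPM in GMC libraries and 46.6 ± 7.19 CPM in NB libraries at 5 h, with -2.095 on the log2 scale (adjusted p = 2.93e-04), and -1.53 at 3 h. The gene called higher at 3 h (1.23) was CG7069, with 17.5 ± 0.891 CPM in GMC libraries and 7.45 ± 0.500 CPM in NB libraries. Pfrx, which makes the activator of phosphofructokinase, had 0.01, 0.28 and -0.15 and was not called at any age.

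Of 17 tested genes of sugar entry, trehalose and glycogen, 4, 4 and 8 were lower in GMCs at 1.5, 3 and 5 h, and 1 was higher at each age. Beside them, 8.98%, 10.5% and 14% of all genes were lower and 8.58%, 10.1% and 14.7% higher. Treh, trehalase, which splits the blood sugar of insects into glucose, averaged 130.0 ± 22.01 CPM in GMC libraries and 341 ± 14.3 CPM in NB libraries at 1.5 h (-1.39, adjusted p = 1.50e-04) and 95.2 ± 10.5 CPM in GMC libraries and 330.3 ± 44.6 CPM in NB libraries at 3 h (-1.79, adjusted p = 5.13e-05). At 5 h it averaged 251 ± 29.3 CPM in GMC libraries and 349.7 ± 84.2 CPM in NB libraries and was not called (-0.48, adjusted p = 0.101). GlyS, glycogen synthase, had -1.61 at 5 h (adjusted p = 4.85e-04), and AGBE, the glycogen branching enzyme, -2.19 (adjusted p = 6.90e-05). Glut1, a glucose transporter, was higher in GMCs at the earlier ages: it averaged 34.3 ± 10.9 CPM in GMC libraries and 2.02 ± 1.18 CPM in NB libraries at 1.5 h (4.06, adjusted p = 3.83e-04) and 24.9 ± 1.88 CPM in GMC libraries and 3.89 ± 2.099 CPM in NB libraries at 3 h (2.65, adjusted p = 0.00617), and was not called at 5 h (-0.86, adjusted p = 0.34). Beside Glut1, the neuron markers brp, nSyb and Syt1 had log2 fold changes of 4.61, 4.15 and 2.17 at 1.5 h, 2.91, 2.37 and 0.59 at 3 h, and -0.79, -1.43 and -1.09 at 5 h; all 3 were called at 1.5 h, Syt1 was not called at 3 h and none was at 5 h. These 3 belong to the list of 9 GMC and new neuron markers, whose median was 3.04, 2.37 and 1.93 at the 3 ages. At 5 h 5 of the 9 were called higher and 0 lower, unlike the 3 named here. The part of these markers in the Glut1 result was not tested.

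Of 7 pentose phosphate genes, 1, 0 and 5 were lower at 1.5, 3 and 5 h, and none was called higher. Beside 8.98%, 10.5% and 14% of all genes lower, the counts at 1.5 and 3 h were near the background. At 5 h Pgd, 6-phosphogluconate dehydrogenase, had -2.83 and Zw, glucose-6-phosphate dehydrogenase, -1.44, both oxidative steps that yield NADPH. Pgd was low, at 1.33 ± 0.165 CPM in GMC libraries and 9.47 ± 2.94 CPM in NB libraries at 5 h. It was not called at 3 h (-0.32). Zw averaged 6.86 ± 0.316 CPM in GMC libraries and 18.6 ± 1.28 CPM in NB libraries at 5 h. In the non-oxidative branch Taldo, transaldolase, had -1.35 and CG8036, listed with it, -1.30.

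Of 17 tested genes of pyruvate use and of the lactate, malate and glycerol-phosphate shuttles, 5, 5 and 10 were lower at 1.5, 3 and 5 h, and 0, 1 and 1 higher. Beside them, 8.98%, 10.5% and 14% of all genes were lower and 8.58%, 10.1% and 14.7% higher. PCB, pyruvate carboxylase, averaged 33.4 ± 7.21 CPM in GMC libraries and 133 ± 22.4 CPM in NB libraries at 5 h and had -0.78, -1.28 and -1.99 at the 3 ages. Men-b, a malic enzyme, had -1.45, -1.42 and -0.62, and Men, another, -0.55, -0.67 and -0.86. Got1, an aspartate aminotransferase of the malate shuttle, had -0.62, -0.73 and -1.06. These 12 values were all called.

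Of 17 tested tricarboxylic acid cycle genes, 1, 3 and 9 were lower at 1.5, 3 and 5 h, and none was called higher. All genes gave 8.98%, 10.5% and 14%, so the counts at 1.5 and 3 h were near the background. The median log2 fold change of this list was -0.31, -0.31 and -0.62, beside -0.62, -1.07 and -1.75 for the 10 glycolytic genes. The gene kdn, citrate synthase, which brings acetyl groups into the cycle, averaged 58.8 ± 0.608 CPM in GMC libraries and 257 ± 22.6 CPM in NB libraries at 5 h and had -0.71, -1.19 and -2.13, all called. Acon, aconitase, had -1.03 at 5 h, l(1)G0156, an isocitrate dehydrogenase subunit, -1.21 and SdhA, of succinate dehydrogenase, -0.81.

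Of 12 regulators with a known link to glycolysis, 1 was lower at each age, and 0, 2 and 4 were higher, beside 8.98%, 10.5% and 14% of all genes lower and 8.58%, 10.1% and 14.7% higher. Except for the 4 higher at 5 h, these counts were near or below those shares. The lower one was REPTOR, a transcription factor that TORC1 signalling holds back, with 22.4 ± 3.25 CPM in GMC libraries and 128 ± 51.1 CPM in NB libraries at 5 h and -1.58, -2.41 and -2.51 at the 3 ages. Among the higher ones at 5 h were tgo, the partner of the hypoxia factor sima (1.09), Akt1, a kinase of insulin signalling (1.07), and slif, an amino acid transporter (0.66).

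Markers of other cell types were read beside these results, with their summed levels in the libraries of each age. Their counts stand beside 8.58%, 10.1% and 14.7% of all genes called higher and 8.98%, 10.5% and 14% called lower. Of 9 tested glia markers, 3 were called higher in GMCs at each age and 0 lower. The list summed to 594 to 785, 875 to 882 and 1043 to 1082 CPM in GMC libraries at 1.5, 3 and 5 h. In NB libraries it summed to 682 to 831, 638 to 779 and 538 to 664 CPM. The defining glial factor repo averaged 0.988 ± 0.0329 CPM in GMC libraries and 2.07 ± 1.18 CPM in NB libraries at 5 h. At 1.5 h, where it was called, it averaged 3.38 ± 1.25 CPM in GMC libraries and 0.936 ± 0.182 CPM in NB libraries. Its lower mean in GMCs at 5 h went the other way from the summed list. Of 7 muscle markers, 1, 2 and 1 were higher in GMCs at 1.5, 3 and 5 h. They summed to 426 to 484, 638 to 651 and 447 to 712 CPM in GMC libraries at these ages. In NB libraries they summed to 365 to 443, 399 to 549 and 348 to 410 CPM. Of 7 hemocyte and fat body markers, 0, 1 and 2 were lower in GMCs at these ages. They summed to 9.41 to 11.9, 78.6 to 82.6 and 6.78 to 10.1 CPM in GMC libraries at 1.5, 3 and 5 h. In NB libraries they summed to 7.71 to 11.4, 17.5 to 98.9 and 12.9 to 55.4 CPM. Over the 3 ages GMC and new neuron markers summed to 4777 to 14435 CPM in GMC libraries and 878 to 2049 CPM in NB libraries. Neuroblast markers summed to 4147 to 4604, 3482 to 3568 and 6504 to 8454 CPM in GMC libraries at 1.5, 3 and 5 h. In NB libraries they summed to 6313 to 7589, 4301 to 4769 and 5914 to 9209 CPM, so the cell types overlapped at 5 h. No tested marker was at 0 in a whole group. The part of other cell types in the glycolytic differences was not tested.

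The genes whose pattern was most like that of the 10, by Pearson's r over the 16 libraries with the mean of their standardized log2 CPM, were sought among the 4795 other genes whose mean reached 20 CPM. They were kdn (r = 0.978), Marcal1 (0.968), CG11811 (0.968), Vdup1 (0.968) and CG7889 (0.965). The libraries share cell type, run and depth, so these values are a description.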

How the data were processed

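Poly(A) RNA was sequenced from 16 libraries of sorted GMCs and NBs in 6 groups, by the cell type and time in the labels. The authors deposited a whole-number count of reads per gene for 16364 genes in each library, without normalization. The submitters' processing notes name DESeq2 1.12.4, HTSeq 0.6.1, TopHat2 2.1.1, BWA 0.7.12 and bedtools 2.26.0 without saying what each did. Not given in the sources used here are the genome build, the annotation, the strand setting and any counting of molecules by the random octamers of the index primer. Summary entries that name no gene stayed out of library sizes and tests: of all entries of a library, no_feature held 9.20% to 17.7%, alignment_not_unique 21.7% to 33.4% and ambiguous 1.42% to 2.09%. The authors' deposited comparison tables hold, per the file headers, the mean signal over libraries, the log2 fold change with a Wald score, and the p-value before and after adjustment. Only their fold change and adjusted p were used, for 1 count.

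The test was that of edgeR 4.0.16 in R 4.3.3 with limma 3.58.1, on TMM scaling, filterByExpr (minimum count 10, total 15), which kept 10913 genes and removed 5451, and a robust quasi-likelihood fit of all 16 libraries. Tests are two-sided, with Benjamini-Hochberg adjustment over all tested genes and calls at 0.05. The common dispersion was 0.0782. Log2 CPM used a prior count of 2. Exon lengths are the union of exons in the Ensembl release 115 annotation, whose positions equal those in the deposited tables for all 10 genes. The fit was tested on simulated data with 200 changed genes. The alternatives tried were a replicate block, DESeq2 1.42.0, median-ratio scaling, no filter on low counts, fits of only the groups compared, scaling without CR43283, a gene-length trend removed, each library left out and, for levels per kilobase, the longest transcript as length. For the 10 genes the smallest count in a library was 82. The 10 genes, the gene lists and the tests were chosen with earlier results of these data known. Named were the 10 genes, up to 4 genes of each pathway list by smallest adjusted p in any comparison of GMCs with NBs with a mean of at least 5 CPM, the 5 genes most alike in pattern, and markers where a result touches them. CR43283 was chosen once its values had been seen. No sequences were used.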

Additional observations from a re-analysis of the deposited data

Results flagged for a closer look

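The change of the GMC-NB difference with age passed the test itself for the following genes; values are changes in the log2 fold change of GMCs over NBs, by edgeR. From 1.5 to 5 h the difference became more negative for Ald by -2.39, PyK by -1.69, Pfk by -1.46, Gapdh2 by -1.09, Gapdh1 by -0.94, Eno by -0.92 and Pgi by -0.83. From 3 to 5 h it became more negative for Pfk by -1.76, Ald by -1.54 and PyK by -1.29. The calls of Ald, PyK and Gapdh2 from 1.5 to 5 h held under each alternative run; the others were lost without single libraries, as given with the results. Each age was sequenced in a run of its own, but GMCs and NBs of an age shared theirs.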

How the results depend on the processing

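Of 420 fold changes of the 10 genes under settings other than leaving out a library, 398 kept their direction and their side of the threshold, 11 were lost and 11 gained, and none changed sign. Of 480 with a library left out, 412 kept both, 48 were lost, 6 were gained and 14 changed sign. At 3 h Gapdh1 was gained with median-ratio scaling (adjusted p = 0.0343), DESeq2 (0.0138), the block (0.0293) and scaling without CR43283 (0.0315), and ImpL3 with DESeq2 (0.0421). Calls between 3 and 5 h numbered 5 with DESeq2 and 0 in a fit of only the groups compared. In NBs at 3 h over 1.5 h, 0 were called with no filter. With the longest transcript as length, 21 of the 60 levels per kilobase moved by more than 1 SD between libraries and 39 did not. Over all genes, 2996 were called at 1.5 h in a fit of only that age, against 1916.

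With 1 library left out, genes called numbered 1160 to 1451 at 1.5 h, 1085 to 2176 at 3 h and 1735 to 3191 at 5 h. Of the 10 genes, 3 to 8 were called for the change from 1.5 to 5 h and 0 to 4 from 3 to 5 h. Over 1.5 h, 0 to 2 were called in GMCs at 3 h and 5 to 9 at 5 h, and 0 to 1 in NBs at 3 h and 2 to 3 at 5 h. The 14 changes of sign were of uncalled values, given as ranges over the libraries left out. Pgk ran from -0.22 to 0.0129 at 1.5 h, with the change of sign without NB replicate 1 of that age, and from -0.62 to 0.11 at 3 h, where it came without GMC replicate 1. Pfk at 3 h ran from -0.34 to 0.11 and changed sign without NB replicate 3 or GMC replicate 1. For the change from 1.5 to 3 h, Gapdh1 ran from -0.25 to 0.0635, Pgk from -0.51 to 0.22 and ImpL3 from -1.58 to 0.11. For that from 3 to 5 h, Pgk ran from -0.64 to 0.0907 and ImpL3 from -0.97 to 0.71. The cause was not tested.

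Deviations of GMC and NB libraries with the same replicate number correlated at 0.08, -0.01 and -0.02 at 1.5 h. The values were -0.05 and -0.16 at 3 h and 0.08 and -0.03 at 5 h. Where GMCs have 2 libraries, their deviations from the group mean mirror each other. The check therefore cannot settle whether GMC and NB libraries of the same number share an origin. With a replicate block 5, 7 and 8 of the 10 genes were called at 1.5, 3 and 5 h, and 2199, 2575 and 3402 genes in all. The median over all genes moved by over 0.1 with scaling without CR43283 at 3 h (-0.11), with only the groups compared at 5 h (0.10) and without NB replicate 1 at 5 h (0.19). Where a group of 2 lost 1 library, the lone one was assumed to vary as the remaining groups do.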
